A study of Cricetulus griseus with 9 samples.

Results

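The genes described here code for the enzymes that make sugar donors and build glycans on proteins. They were chosen by symbol alone, from families such as the Alg, Man, Mgat, B4galt, Galnt, St3gal and Pig genes and single enzymes of nucleotide-sugar synthesis, and the rule took 72 of the 6753 genes in the expression table. All 72 passed the filter on low values. Each was assigned to 1 of 14 roles, from the making of UDP-GlcNAc to the assembly of glycosylphosphatidylinositol (GPI) anchors.

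N-glycans are first assembled on the lipid dolichol in the membrane of the endoplasmic reticulum (ER), from UDP-GlcNAc, GDP-mannose and dolichol-linked mannose and glucose. The oligosaccharyltransferase complex moves the finished glycan onto new proteins, where ER glucosidases and mannosidases trim it as part of protein quality control. Golgi mannosidases then cut it further, and Golgi transferases rebuild it with GlcNAc, galactose and sialic acid. The sugar donors branch from the hexose phosphates of glycolysis, just below the step that hexokinase catalyses.

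The study asked how hexokinase 2 and lactate act on gene expression, in connection with lactylation of histone H3, and measured mRNA by RNA sequencing in MI5-4 cells, a Chinese hamster ovary (CHO) line. There were 3 groups of 3 libraries. EV is the hexokinase-null control, WTHK2 the same line expressing wild-type HK2, and LAC is EV treated with 10 mM sodium lactate for 24 h; all groups were grown in glucose-containing Minimum Essential Medium alpha with serum and antibiotics. The labels name neither the promoter of the HK2 construct nor whether WTHK2 is 1 clone. They also do not say that replicates came from separate cultures, so p-values measure the spread between these libraries, which may be technical.

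The effective library sizes lay between 18050959 and 26238659 reads. Hk2, the targeted gene, averaged 67.3 ± 2.11 CPM over the EV libraries, 65.3 ± 1.33 over WTHK2 and 67.8 ± 2.92 over LAC (mean ± SD, n = 3), so it was not higher in the libraries labelled WTHK2 (log2 fold change -0.04, 95% interval -0.16 to 0.07, limma adjusted p = 0.522). A directed statement about WTHK2 therefore rests on the label. Whether the counting could register reads of the introduced HK2 was not tested. Although the control is called hexokinase-null, Hk1 mRNA was listed. Hk1 averaged 324 ± 7.09 CPM over EV, 285 ± 7.63 over WTHK2 and 302 ± 2.22 over LAC. It was called lower than EV in WTHK2 (-0.18, limma adjusted p = 3.64e-04) and in LAC (-0.10, adjusted p = 0.0277). Whether this mRNA yields active enzyme was not tested. Of 5 markers of the line, 4 were listed, and their summed level ran from 4110 to 4210 CPM over the EV libraries, from 4900 to 5000 over WTHK2 and from 4160 to 4300 over LAC. The markers did not move together: mean Fn1 was 731, 576 and 583 CPM in the groups in that order, and mean S100a6 605, 838 and 751. None of 4 leukocyte, 4 epithelial and 3 endothelial markers was listed. Levels are the authors' normalized CPM, which is not scaled to transcript length, so they are compared between libraries and not between genes. Since this is bulk RNA, less RNA per cell and fewer expressing cells cannot be told apart.

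Comparing WTHK2 with EV, 16 of the 72 genes were called higher and 17 lower, at an adjusted p under 0.05 over all genes. The table as a whole had 46.4% of genes called, 21.0% higher and 25.4% lower, and among the glycosylation genes the shares were 45.8%, 22.2% and 23.6%. The number of changes was thus near the background, and the median log2 fold change was 0.02 against -0.01 for all genes. By role, 3 of 6 genes of GDP-mannose supply and 5 of 9 of the lipid-linked glycan were called higher; 3 of these 8 calls (DPM2, Alg8 and Alg12) ended when 1 library was left out, Alg9 was lower, and no role was tested as a whole. The genes called lower included both enzymes of O-GlcNAc cycling, the Stt3 catalytic subunits, Uggt1, Man1a2, Man2a1 and B4galt5. The changes were small: fitted log2 fold changes ran from -0.50 to 0.27, and 0 genes reached 1.5-fold. Without regard to the test, 18 genes had all WTHK2 libraries above all EV libraries and 21 had them all below, where 26.6% and 30.5% of all genes did. With every library rescaled to the same median, the split became 21 higher and 12 lower, with 63.6% of calls higher in place of 48.5%.

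Comparing LAC with EV, 16 of the 72 genes were called higher and 19 lower. Over the full table, calls covered 49.5% of genes, 22.4% higher and 27.1% lower, and the glycosylation genes stood at 48.6%, 22.2% and 26.4%, again near the background. The median log2 fold change was -0.02, with 0.00 for all genes, and the range was -0.57 to 0.33; 0 genes reached 1.5-fold. All LAC libraries lay above all EV libraries for 13 genes and below them for 21, where 27.0% and 30.8% of all genes did so. The deepest falls were in the Golgi mannosidases Man2a1, Man1a and Man1a2, and the largest rise was in Pigx. The count of higher genes leaned on single libraries: it was 7 without EV replicate 1 and 6 without LAC replicate 1. Rescaling to the same median gave 18 higher and 13 lower, or 58.1% of calls higher in place of 45.7%. Both comparisons use the same 3 EV libraries, so their values are given side by side and their likeness is not used as evidence.

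**Figure D1:**
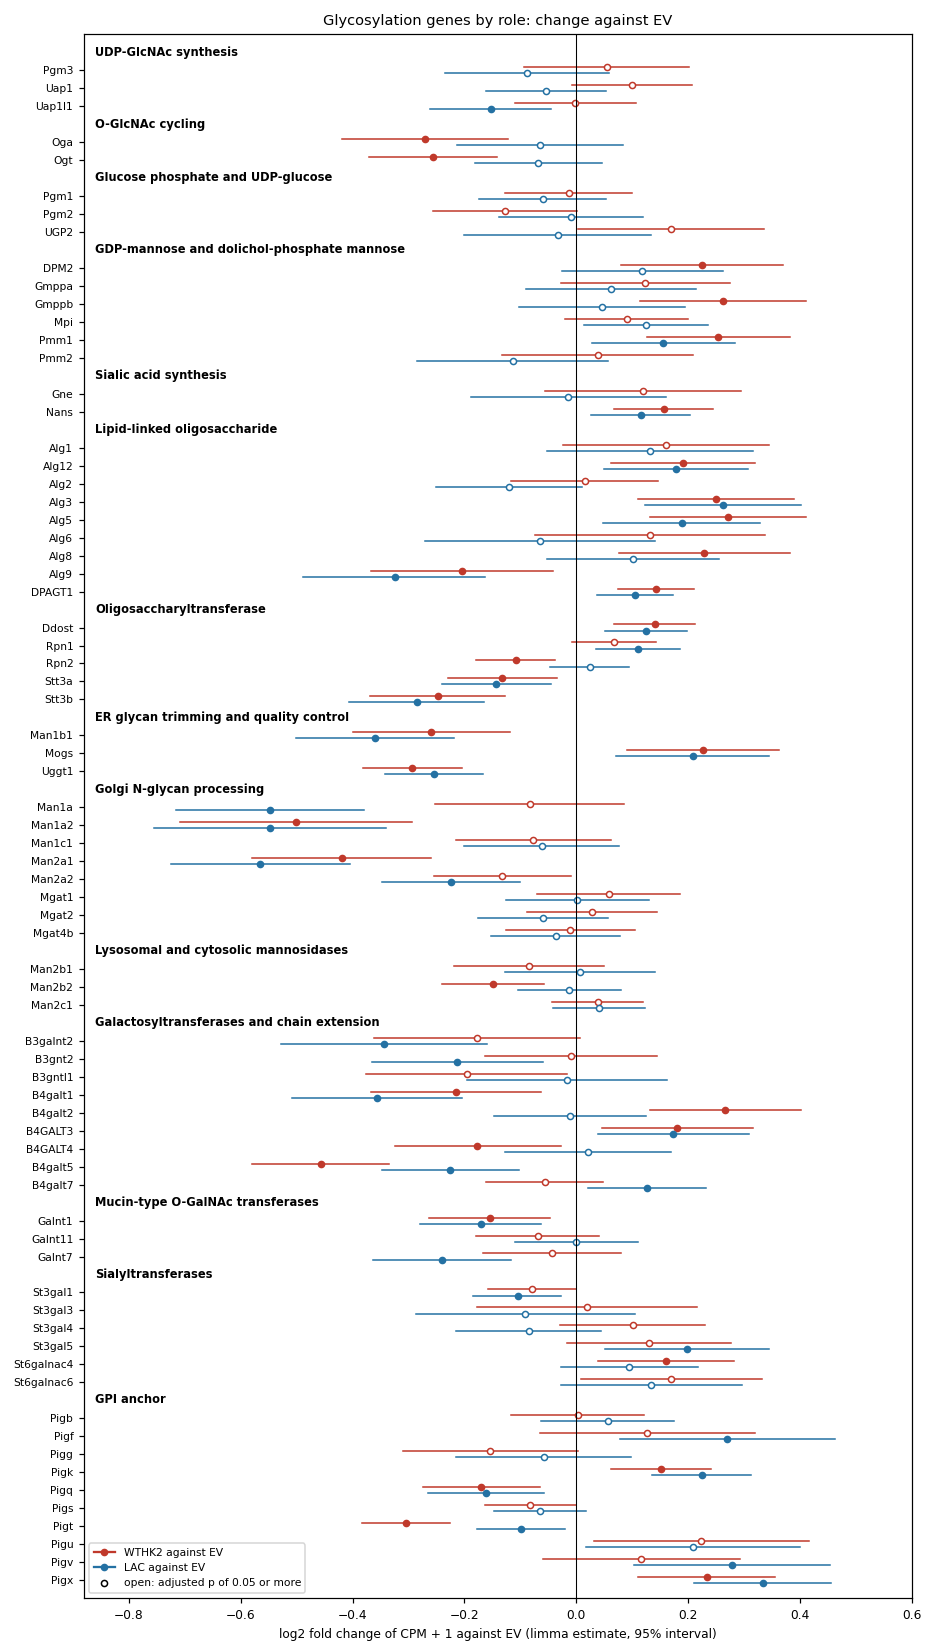
Fitted log2 fold change of CPM + 1 against EV for the 72 genes, ordered by role, in WTHK2 (red) and LAC (blue), with 95% intervals; filled points passed an adjusted p of 0.05. The points furthest to the left are the Golgi mannosidases, at -0.57 (Man2a1), -0.55 (Man1a) and -0.55 (Man1a2) in LAC.

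The pathway to UDP-GlcNAc, the donor for N-glycan cores and O-GlcNAc, was represented by Pgm3, Uap1 and Uap1l1. Of the 3, 0 were called in WTHK2 and 1 in LAC, where 46.4% and 49.5% of all genes were. Uap1l1, a paralogue of the UDP-GlcNAc pyrophosphorylase Uap1, was at 73.8, 70.9 and 75.3 CPM in EV, 72.3, 72.0 and 75.5 in WTHK2 and 67.8, 64.0 and 65.8 in LAC. The LAC libraries lay below all the others, though WTHK2 and LAC differed by 0.151 with no call (adjusted p = 0.0503). The fall in LAC against EV was -0.15 ± 0.05 on the log2 scale (± SE, adjusted p = 0.0187). That call was lost without EV replicate 1 (0.055), EV replicate 3 (0.0742) or LAC replicate 2 (0.0537) and with equal medians (0.0842) or quantile normalization (0.0667). Pgm3, the phosphoacetylglucosamine mutase, had log2 fold changes of 0.05 in WTHK2 and -0.09 in LAC (adjusted p = 0.553 and 0.31).

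O-GlcNAc is a single sugar that Ogt adds to nuclear and cytosolic proteins and Oga removes. Ogt was at 102, 112 and 102 CPM in EV, 93.3, 86.7 and 84.6 in WTHK2 and 95.2, 106 and 101 in LAC. All WTHK2 libraries were below all EV and all LAC libraries. The difference from EV was -0.26 ± 0.05 (adjusted p = 8.46e-04), a fall of 16.2% in CPM + 1. Oga was at 32.2, 32.1 and 33.1 CPM in EV, 28.6, 25.6 and 26.1 in WTHK2 and 29.9, 31.4 and 31.7 in LAC. The eraser was thus also lowest in WTHK2, by -0.27 ± 0.07 against EV (adjusted p = 0.0042). Its difference between WTHK2 and LAC, -0.205, was not called (adjusted p = 0.0548). In LAC the differences from EV were -0.07 for each gene (adjusted p = 0.314 for Ogt and 0.461 for Oga), and the 95% intervals, -0.18 to 0.05 and -0.21 to 0.08, leave room for small changes either way.

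Of the genes for glucose phosphate and UDP-glucose, the phosphoglucomutases Pgm1 and Pgm2 and the UDP-glucose pyrophosphorylase UGP2, 0 of 3 were called in either comparison. The shares of all genes called were 46.4% in WTHK2 and 49.5% in LAC. UGP2 was at 55.5, 43.9 and 53.0 CPM in EV, 53.5, 58.5 and 59.1 in WTHK2 and 51.4, 52.9 and 44.4 in LAC, so that EV overlapped LAC widely and WTHK2 only through EV replicate 1, which lay above WTHK2 replicate 1. Its difference in WTHK2 was 0.17 ± 0.08 (adjusted p = 0.0896), and it passed the threshold without EV replicate 1 (0.0445), without WTHK2 replicate 1 (0.048) and with equal medians (0.0374).

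GDP-mannose is made from mannose phosphates by Mpi, Pmm1, Pmm2 and Gmppb, and is used by the dolichol-phosphate mannose synthase, of which DPM2 is a regulatory subunit. In WTHK2, 3 of the 6 genes of this step rose and 0 fell, and in LAC 1 rose, where 21.0% and 22.4% of all genes rose. Pmm1, which converts mannose 6-phosphate to mannose 1-phosphate, was at 41.7, 43.6 and 39.0 CPM in EV, 50.03, 48.4 and 50.2 in WTHK2 and 45.1, 47.1 and 46.4 in LAC. The groups did not overlap, with WTHK2 highest, and the rises over EV were 0.25 ± 0.06 (adjusted p = 0.00225) and 0.16 ± 0.06 (adjusted p = 0.0415). The difference between WTHK2 and LAC, 0.099, was not called (adjusted p = 0.304). Gmppb, the catalytic subunit of GDP-mannose pyrophosphorylase, was at 27.7, 28.0 and 28.3 CPM in EV, 31.9, 35.1 and 34.4 in WTHK2 and 29.2, 30.3 and 27.4 in LAC. Only the WTHK2 libraries stood above EV without overlap, by 0.26 ± 0.07 (adjusted p = 0.00534), and LAC differed by 0.05 (adjusted p = 0.614). DPM2 rose by 0.23 ± 0.07 in WTHK2 (adjusted p = 0.0121, and 0.0892 without EV replicate 2). The LAC call for Pmm1 was lost in 8 alternatives, among them each LAC library left out in turn (adjusted p = 0.0539, 0.0876 and 0.0857), EV replicate 1 (0.0774), EV replicate 3 (0.181), WTHK2 replicate 2 (0.0508) and WTHK2 replicate 3 (0.0502).

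Sialic acid synthesis was represented by Gne and Nans, the sialic acid synthase. Nans was at 130, 132 and 137 CPM in EV, 143, 149 and 152 in WTHK2 and 142, 140 and 149 in LAC. Every WTHK2 and LAC library was above every EV library, by 0.16 ± 0.04 (adjusted p = 0.00565) and 0.12 ± 0.04 (adjusted p = 0.0314). The LAC call did not hold without EV replicate 1 (0.11), EV replicate 2 (0.0923), LAC replicate 1 (0.0506) or LAC replicate 3 (0.131), or without a variance trend (0.0555). Gne, which starts the pathway, differed by 0.12 and -0.01 (adjusted p = 0.252 and 0.898).

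The lipid-linked oligosaccharide is built by DPAGT1, which places the first sugar on dolichol, and by the Alg enzymes, which add mannose and glucose. Of the 9 genes, 5 rose and 1 fell in WTHK2, and 4 rose and 1 fell in LAC, with medians of 0.16 and 0.11. For all genes, 21.0% rose and 25.4% fell in WTHK2, and 22.4% rose and 27.1% fell in LAC. DPAGT1 was at 408, 401 and 408 CPM in EV, 438, 458 and 448 in WTHK2 and 437, 433 and 440 in LAC. The 3 EV libraries lay closely together below the rest, and the rises were 0.14 ± 0.03 (adjusted p = 0.00154) and 0.11 ± 0.03 (adjusted p = 0.012, and 0.0566 without EV replicate 2). Alg3, a mannosyltransferase of the ER lumen, was at 34.3, 31.8 and 33.4 CPM in EV, 40.0, 38.1 and 40.8 in WTHK2 and 40.0, 42.1 and 37.9 in LAC (0.25 ± 0.07 and 0.26 ± 0.07, adjusted p = 0.00459 and 0.00302). Alg5, which makes the dolichol-linked glucose, was at 28.9, 30.7 and 30.1 CPM in EV, 35.7, 36.6 and 36.5 in WTHK2 and 35.8, 34.2 and 32.6 in LAC. Both groups lay above EV, by 0.27 ± 0.07 (adjusted p = 0.00272) and 0.19 ± 0.07 (adjusted p = 0.0257). The LAC call for Alg5 was lost without EV replicate 1 (0.0906), EV replicate 3 (0.0509) or LAC replicate 1 (0.106).

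Alg12 and Alg8, a mannosyltransferase and a glucosyltransferase of the same assembly line, gave calls that single libraries could end. Alg12 rose by 0.19 ± 0.06 in WTHK2 (adjusted p = 0.0161), and without EV replicate 1, EV replicate 2 or WTHK2 replicate 3 the adjusted p was 0.0743, 0.0624 and 0.0735. In LAC Alg12 rose by 0.18 ± 0.06 (adjusted p = 0.0217), and without EV replicate 1, EV replicate 2 or LAC replicate 1 the adjusted p was 0.0902, 0.0774 and 0.139. Alg8 rose by 0.23 ± 0.07 in WTHK2 (adjusted p = 0.0154, with 0.0579 without EV replicate 3 and 0.0827 without WTHK2 replicate 1). Alg9, which acts in the lumen between Alg3 and Alg12, went the other way. It was at 38.5, 39.2 and 33.8 CPM in EV, 31.6, 31.3 and 33.4 in WTHK2 and 28.3, 27.6 and 32.5 in LAC, with EV replicate 3 just above the highest WTHK2 library. Its fall was -0.33 ± 0.08 in LAC (adjusted p = 0.00192), a call kept in every alternative that tested it, and -0.20 ± 0.08 in WTHK2 (adjusted p = 0.0383). The WTHK2 call was lost without EV replicate 1 (0.134), EV replicate 2 (0.155), WTHK2 replicate 1 (0.0793) or WTHK2 replicate 2 (0.104), and under equal medians (0.082) or quantile normalization (0.0608).

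The subunits of the oligosaccharyltransferase split. The catalytic subunits Stt3a and Stt3b were lower than EV in both groups, while Ddost, a non-catalytic subunit, was higher in both. Stt3b, which serves mainly the sites that the other form misses, was at 129, 138 and 135 CPM in EV, 105, 113 and 119 in WTHK2 and 102, 121 and 107 in LAC. All EV libraries were above all others, with LAC replicate 2 the nearest, and the falls were -0.25 ± 0.06 (adjusted p = 0.00167) and -0.29 ± 0.06 (adjusted p = 4.59e-04). Ddost was at 422, 434 and 446 CPM in EV, 488, 472 and 475 in WTHK2 and 489, 465 and 466 in LAC. The rises of Ddost were 0.14 ± 0.03 (adjusted p = 0.00281) and 0.13 ± 0.03 (adjusted p = 0.00583), also without overlap.

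Stt3a fell by 0.13 ± 0.05 in WTHK2 and by 0.14 ± 0.05 in LAC (adjusted p = 0.0252 and 0.0154). Those calls were fragile: in WTHK2 they were lost without EV replicate 1 (0.0736), EV replicate 3 (0.081), WTHK2 replicate 1 (0.0725) or WTHK2 replicate 2 (0.078), and in LAC without EV replicate 1 (0.0504), EV replicate 3 (0.056), LAC replicate 1 (0.0818) or LAC replicate 3 (0.08). Equal medians gave 0.0881 and 0.0691, quantile normalization 0.0681 and 0.0531, and the fit without a variance trend 0.0721 and 0.0516. The ribophorins Rpn1 and Rpn2, which are structural subunits, did not share a pattern. Rpn1 rose by 0.11 ± 0.04 in LAC (adjusted p = 0.0156, with 0.0627 without EV replicate 1, 0.0672 without LAC replicate 3 and 0.0653 without a variance trend) and differed by 0.07 in WTHK2 (adjusted p = 0.133). Rpn2 fell by 0.11 ± 0.03 in WTHK2 (adjusted p = 0.0132, with 0.0577 without EV replicate 3, 0.0742 without WTHK2 replicate 2, 0.102 with equal medians and 0.0696 without a variance trend) and differed by 0.02 in LAC (adjusted p = 0.578).

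In the ER, Mogs removes the outermost glucose, Uggt1 puts a glucose back on misfolded glycoproteins, and Man1b1 trims mannose from glycoproteins that are to be degraded. All 3 were called in each comparison, Mogs higher and the others lower, where 46.4% and 49.5% of all genes were called. Uggt1 was at 243, 247 and 240 CPM in EV, 205, 190 and 201 in WTHK2 and 207, 212 and 193 in LAC. The gap to EV exceeded the spread within any group, and the falls were -0.29 ± 0.04 (adjusted p = 1.68e-05) and -0.25 ± 0.04 (adjusted p = 7.27e-05), or 18.4% and 16.1%. Man1b1 was at 73.9, 85.1 and 78.2 CPM in EV, 58.7, 69.6 and 69.8 in WTHK2 and 59.7, 60.01 and 64.3 in LAC. It fell by 0.26 ± 0.07 (adjusted p = 0.0039) and by 0.36 ± 0.07 (adjusted p = 2.31e-04), with no overlap with EV. Mogs was at 43.7, 43.9 and 43.4 CPM in EV, 52.1, 48.5 and 53.4 in WTHK2 and 52.9, 53.3 and 46.0 in LAC, and LAC replicate 3 was the library of both groups nearest to EV. It rose by 0.23 ± 0.07 (adjusted p = 0.00813) and by 0.21 ± 0.07 (adjusted p = 0.013, and 0.0571 without LAC replicate 1). The calls for Uggt1 and Man1b1 were kept in every alternative.

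The Golgi steps that follow held the largest differences of the 72 genes. Of 8 genes, 2 fell in WTHK2 and 4 in LAC, and 0 rose in either. All the genes that fell were mannosidases, while the GlcNAc transferases Mgat1, Mgat2 and Mgat4b, which start the branches of complex glycans, were not called, with fitted values between -0.06 and 0.06. Man2a1, the alpha-mannosidase II that commits a glycan to the complex type, was at 149, 165 and 154 CPM in EV, 108, 117 and 125 in WTHK2 and 92.0, 125 and 101 in LAC. Every EV library was above every other, and the falls were -0.42 ± 0.08 in WTHK2 (adjusted p = 1.98e-04) and -0.57 ± 0.08 in LAC (adjusted p = 9.23e-06), that is 25.2% and 32.4%. Man1a2, a Golgi class I alpha-mannosidase, was at 75.2, 73.6 and 76.7 CPM in EV, 46.8, 56.6 and 55.7 in WTHK2 and 43.2, 64.8 and 47.7 in LAC. EV was tight and above all other libraries, and LAC replicate 2 stood apart within its group. The falls were -0.50 ± 0.10 (adjusted p = 4.24e-04) and -0.55 ± 0.10 (adjusted p = 1.68e-04).

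Man1a, the close relative of Man1a2 with the same activity, was at 48.0, 50.4 and 46.1 CPM in EV, 39.7, 47.7 and 49.3 in WTHK2 and 33.0, 35.5 and 29.6 in LAC. All LAC libraries were below all others, and WTHK2 overlapped EV, with WTHK2 replicate 1 the lowest of the untreated libraries. The fall in LAC was -0.55 ± 0.08 (adjusted p = 2.20e-05), or 31.6%. In WTHK2 the difference was -0.08 ± 0.08 (adjusted p = 0.415, 95% interval -0.25 to 0.09). Man2a2, the paralogue of Man2a1, was at 66.1, 67.3 and 70.7 CPM in EV, 57.3, 62.2 and 66.7 in WTHK2 and 57.7, 57.6 and 58.9 in LAC. It fell in LAC by 0.22 ± 0.06 (adjusted p = 0.0039), and its difference in WTHK2 was -0.13 ± 0.06 (adjusted p = 0.0725). The calls for these 4 mannosidases were kept in every alternative that tested them. Man1c1, the remaining class I Golgi mannosidase, differed by -0.08 and -0.06 (adjusted p = 0.356 and 0.459).

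**Figure D2:**
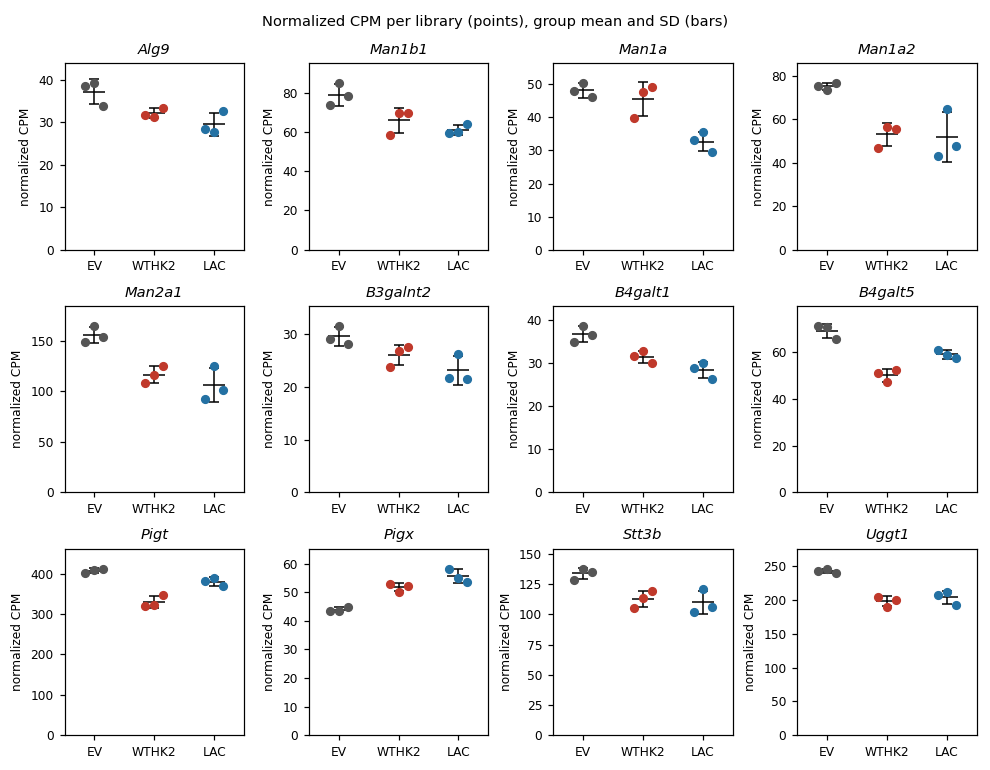
Normalized CPM in each library (points) with the group mean and SD (bars, n = 3) for the 10 genes past 0.3 on the log2 scale in a comparison that called them, with Stt3b and Uggt1; each axis starts at 0. For Man2a1 the EV libraries sit between 149 and 165 CPM and the others between 92.0 and 125, and for Man1a only LAC stands apart.

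Another list of genes was set beside these values. It held 62 listed genes taken as coding for proteins of more than 2500 residues, and was drawn up with results in view. Neither the protein lengths nor the completeness of the list was checked here. Of the 62, 52 were lower and 1 higher in WTHK2, and 53 lower and 0 higher in LAC, with medians of -0.29 and -0.30. Of all genes, 25.4% were lower and 21.0% higher in WTHK2, and 27.1% lower and 22.4% higher in LAC. The median of the long-protein genes per library was -0.21, -0.32 and -0.32 in WTHK2 and -0.32, -0.23 and -0.33 in LAC. LAC replicate 2 and WTHK2 replicate 1 were thus the least low of their groups here. LAC replicate 2 had the highest Man1a2, Man2a1 and Stt3b of the LAC libraries, while WTHK2 replicate 1 had the lowest of the WTHK2 libraries. The median of the 4 listed mitochondrially encoded transcripts was above the EV mean by 0.73, 0.45 and 0.40 in WTHK2 and by 0.80, 0.52 and 0.45 in LAC. The part of either pattern in the glycosylation genes was not tested.

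The mannosidases of the lysosome and cytosol, which break glycans down, were mostly near EV. Man2b2, a lysosomal enzyme, was at 182, 174 and 182 CPM in EV, 167, 157 and 160 in WTHK2 and 188, 171 and 173 in LAC. Only WTHK2 lay below EV without overlap, by -0.15 ± 0.04 (adjusted p = 0.00903). Man2b1 and the cytosolic Man2c1 were not called, with values between -0.08 and 0.04.

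Galactosyltransferases and enzymes of chain extension moved in both directions: of 9 genes, 2 rose and 3 fell in WTHK2, and 2 rose and 4 fell in LAC. These shares were 22.2% and 33.3% in WTHK2, with 21.0% and 25.4% for all genes, and 22.2% and 44.4% in LAC, with 22.4% and 27.1%. B4galt5, which makes lactosylceramide for glycolipids, was at 71.1, 70.4 and 65.6 CPM in EV, 50.7, 47.0 and 52.4 in WTHK2 and 60.9, 58.5 and 57.2 in LAC. The 3 groups were fully separate, with falls of -0.46 ± 0.06 in WTHK2 (adjusted p = 4.80e-06) and -0.23 ± 0.06 in LAC (adjusted p = 0.00368), and both calls were kept in every alternative. B4galt1, a main galactosyltransferase of N-glycan antennae, was at 35.0, 38.7 and 36.5 CPM in EV, 31.7, 32.7 and 30.1 in WTHK2 and 28.9, 30.1 and 26.4 in LAC. It was below EV in all 6 other libraries, by -0.22 ± 0.07 (adjusted p = 0.0208) and -0.36 ± 0.07 (adjusted p = 4.95e-04). The WTHK2 call for B4galt1 was lost without EV replicate 2 (0.102) or WTHK2 replicate 3 (0.0824).

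B4galt2, an isoenzyme of B4galt1, was at 50.8, 56.4 and 51.2 CPM in EV, 62.7, 59.0 and 69.6 in WTHK2 and 50.5, 53.5 and 52.9 in LAC. All WTHK2 libraries stood above all the others, by 0.27 ± 0.07 over EV (adjusted p = 0.00245). B3galnt2, which extends the O-mannose glycan of dystroglycan, was at 29.1, 31.6 and 28.1 CPM in EV, 23.8, 26.8 and 27.6 in WTHK2 and 21.7, 26.3 and 21.5 in LAC. It fell in LAC by 0.34 ± 0.09 (adjusted p = 0.00318), and in WTHK2 the difference was -0.18 ± 0.09 (adjusted p = 0.104). B4GALT3, another isoenzyme, rose by 0.18 ± 0.06 and 0.17 ± 0.06 (adjusted p = 0.0278 and 0.0319). Each of those calls was lost without any of 4 libraries: EV replicates 1 and 2 (0.0662 and 0.106) and WTHK2 replicates 1 and 3 (0.0602 and 0.141) in the first comparison, EV replicates 1 and 2 (0.0721 and 0.117) and LAC replicates 1 and 3 (0.136 and 0.0632) in the other.

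The remaining calls of this role were near the threshold. B4GALT4 fell by 0.18 ± 0.07 in WTHK2 (adjusted p = 0.0482), and leaving out any of the 6 libraries compared ended the call (0.0697 to 0.133), as did LAC replicate 1 (0.052), a robust fit (0.054) and equal medians (0.114). B4galt7, which adds the galactose of the proteoglycan linker, rose by 0.13 ± 0.05 in LAC (adjusted p = 0.0423). Its call ended without any 1 of EV replicates 1, 2 and 3 (0.134, 0.0951 and 0.0505), WTHK2 replicates 2 and 3 (0.05 and 0.0503) or LAC replicates 1 and 2 (0.0732 and 0.133). B3gnt2, which builds lactosamine chains, fell by 0.21 ± 0.07 in LAC although its libraries overlapped EV (adjusted p = 0.0219). That call ended without EV replicate 2 (0.0557), EV replicate 3 (0.109), LAC replicate 1 (0.108) or LAC replicate 3 (0.0822), and under equal medians (0.0537) or quantile normalization (0.062).

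Galnt1, Galnt7 and Galnt11 start or extend mucin-type O-glycans by adding GalNAc, and 1 of the 3 fell in WTHK2 and 2 in LAC. Among all genes 25.4% and 27.1% fell. Galnt7 was at 88.2, 86.6 and 86.5 CPM in EV, 87.1, 81.0 and 85.3 in WTHK2 and 78.0, 77.5 and 66.0 in LAC. The LAC libraries were below all the others, by -0.24 ± 0.06 against EV (adjusted p = 0.00235). Galnt1 fell by 0.17 ± 0.05 in LAC (adjusted p = 0.00996) and by 0.16 ± 0.05 in WTHK2 (adjusted p = 0.0193). The WTHK2 call for Galnt1 was lost without EV replicate 1 (0.0815), EV replicate 2 (0.0651), WTHK2 replicate 1 (0.0963) or WTHK2 replicate 3 (0.058) and with equal medians (0.0631), whereas its LAC call was kept throughout.

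Sialyltransferases cap glycans with sialic acid. Of 6 genes, 1 rose in WTHK2, and in LAC 1 rose and 1 fell, and all these calls could be ended by single libraries. Called genes made up 16.7% and 33.3% of the role, below the 46.4% and 49.5% of all genes. St3gal5, the synthase of the ganglioside GM3, was at 42.9, 50.3 and 42.9 CPM in EV, 48.1, 49.1 and 51.7 in WTHK2 and 55.9, 52.1 and 48.4 in LAC. EV replicate 2 lay inside the LAC range, and the rise in LAC of 0.20 ± 0.07 (adjusted p = 0.0253) was lost without EV replicate 1 (0.115), EV replicate 3 (0.11) or LAC replicate 1 (0.123). St3gal1, which sialylates core O-glycans, fell by 0.11 ± 0.04 in LAC (adjusted p = 0.0257, with 0.0961 without EV replicate 1, 0.0629 without EV replicate 3, 0.139 without LAC replicate 3, 0.17 with equal medians and 0.0712 without a variance trend). St6galnac4, which also acts on O-glycans, rose by 0.16 ± 0.06 in WTHK2 (adjusted p = 0.0301, with 0.142 without EV replicate 1, 0.0701 without EV replicate 3 and 0.0944 without WTHK2 replicate 2).

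The Pig genes make the GPI anchor and attach it to proteins. Of 10, 2 rose and 2 fell in WTHK2, and 4 rose and 2 fell in LAC. The transamidase that attaches the anchor was represented by Pigk, its catalytic subunit, and by Pigs, Pigt and Pigu, and Pigk and Pigt moved in opposite directions. Pigt was at 401, 408 and 413 CPM in EV, 321, 322 and 347 in WTHK2 and 383, 390 and 369 in LAC. WTHK2 stood well below both other groups, by -0.30 ± 0.04 against EV (adjusted p = 2.93e-06), or 19.0%. Its fall in LAC, -0.10 ± 0.04 (adjusted p = 0.0354), was lost without any 1 of the EV libraries (0.0552, 0.0928 and 0.11 for replicates 1, 2 and 3), LAC replicate 1 (0.0556) or LAC replicate 3 (0.151), and with equal medians (0.228), quantile normalization (0.0567) or no variance trend (0.103). Pigk was at 212, 190 and 202 CPM in EV, 229, 217 and 225 in WTHK2 and 228, 239 and 239 in LAC, a rise of 0.15 ± 0.04 (adjusted p = 0.00676, and 0.0662 without EV replicate 2) and of 0.22 ± 0.04 (adjusted p = 2.60e-04).

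Pigx, a partner of the enzyme that adds the first mannose to the anchor, was at 43.4, 43.2 and 45.0 CPM in EV, 52.9, 50.1 and 52.2 in WTHK2 and 58.2, 54.8 and 53.6 in LAC. The 3 groups were separate, with LAC highest, and the rises over EV were 0.23 ± 0.06 (adjusted p = 0.00297) and 0.33 ± 0.06 (adjusted p = 1.24e-04). The direct comparison of WTHK2 with LAC did not call Pigx. Pigq, part of the complex that starts the anchor, fell by 0.17 ± 0.05 and 0.16 ± 0.05 (adjusted p = 0.00913 and 0.0113), and the calls were lost without WTHK2 replicate 1 (0.0706) and without EV replicate 1 (0.0532), and in LAC also with equal medians (0.0504). Pigv, which adds the mannose that follows, rose by 0.28 ± 0.08 in LAC (adjusted p = 0.00993, and 0.0758 without LAC replicate 1), and Pigf, a subunit of the enzyme that adds ethanolamine phosphate, by 0.27 ± 0.09 (adjusted p = 0.0204). The Pigf call was lost without EV replicate 1 (0.0843), EV replicate 2 (0.0976), LAC replicate 1 (0.0728) or LAC replicate 2 (0.0576), and for both genes LAC overlapped EV.

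**Figure D3:**
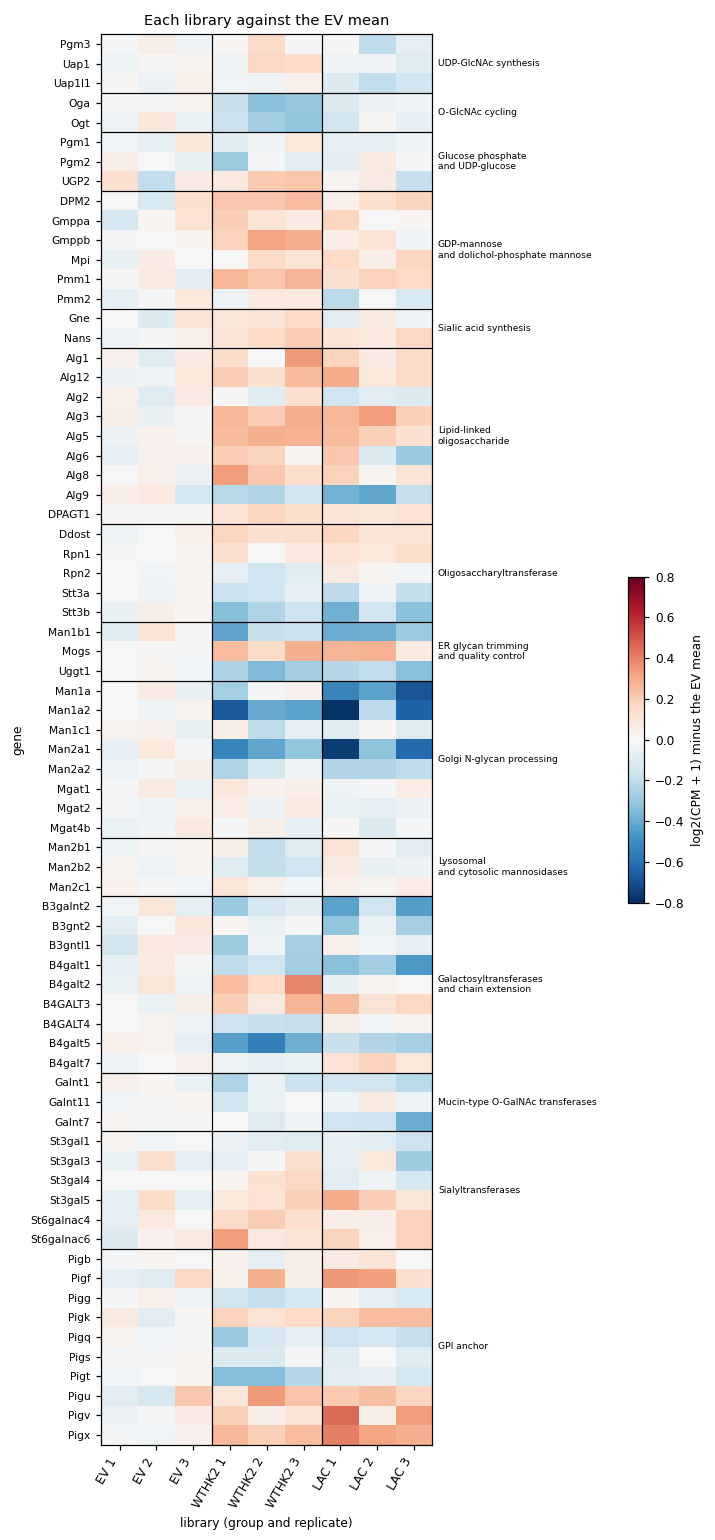
Level of each of the 72 genes in each of the 9 libraries, as log2(CPM + 1) minus the EV mean, ordered by role (blue lower, red higher). The darkest cells are Man1a2, Man2a1 and Man1a, and the rows for Alg3, Alg5 and Pigx are red in all 6 libraries that are not EV.

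WTHK2 and LAC were also compared directly, and this tests whether they differ from each other. Of the 72 genes, 6 were higher in WTHK2 and 6 lower, where 16.1% of all genes were called, 8.37% higher and 7.76% lower; the share here was 16.7%, near the background. The groups did not overlap for 13 genes with WTHK2 above and 10 with it below, against 14.5% of all genes in each direction. Man1a showed the widest gap, 0.46 ± 0.08 higher in WTHK2 (adjusted p = 4.31e-04). Pigt was lower in WTHK2 by -0.21 ± 0.04 (adjusted p = 6.49e-04). These calls, 2 of the 12, were kept in every alternative that tested them. B4galt2 was higher in WTHK2 by 0.28 ± 0.07 (adjusted p = 0.0056, and 0.0531 without WTHK2 replicate 3), and B4galt5 lower by -0.23 ± 0.06 (adjusted p = 0.00996, and 0.0672 without WTHK2 replicate 2). Ogt, the O-GlcNAc transferase, was lower in WTHK2 by -0.19 ± 0.05 (adjusted p = 0.0226), and the call was lost without WTHK2 replicate 2 (0.0775), WTHK2 replicate 3 (0.113), LAC replicate 2 (0.0784) or LAC replicate 3 (0.072), or without a variance trend (0.0565). For Man2a1 the difference was 0.15 (adjusted p = 0.216, 95% interval -0.01 to 0.31) and for Man1a2 0.05 (adjusted p = 0.806, interval -0.16 to 0.25), so a difference between the groups was not resolved for those mannosidases.

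The other calls of this comparison were weaker. Gmppb, Galnt7, St3gal4 and Uap1 were higher in WTHK2, by 0.22, 0.20, 0.19 and 0.15 (adjusted p = 0.0433, 0.0267, 0.0468 and 0.0457), and Rpn2, Man2b2 and B4galt7 lower, by -0.13, -0.14 and -0.18 (adjusted p = 0.0105, 0.0381 and 0.0159). All 7 were lost when certain libraries were left out. For Gmppb, St3gal4, Uap1 and Man2b2 these were any 1 of the EV libraries, WTHK2 replicates 2 and 3 and LAC replicates 1 and 3 (adjusted p = 0.0501 to 0.197). For Galnt7 they were WTHK2 replicates 1 and 3 and LAC replicate 3 (0.0598, 0.0868 and 0.184), for Rpn2 WTHK2 replicate 2 and LAC replicate 1 (0.0653 and 0.055), and for B4galt7 WTHK2 replicates 2 and 3 and LAC replicate 2 (0.0628, 0.0512 and 0.0514). The count of higher genes was 3 without any 1 of the EV libraries or WTHK2 replicate 2, 1 without WTHK2 replicate 3, 10 without LAC replicate 2 and 2 without LAC replicate 3. The count of lower genes was 1 without WTHK2 replicate 2 and 3 without WTHK2 replicate 3. With equal medians the split was 4 higher and 7 lower, so that 36.4% of calls were higher in place of an even split.

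**Figure D4:**
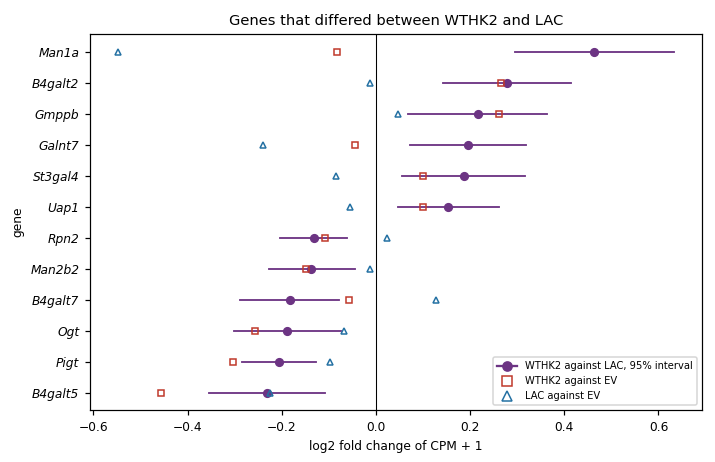
The 12 genes called between WTHK2 and LAC, with the fitted log2 difference WTHK2 minus LAC and its 95% interval (filled circles), and each group's own difference from the shared EV libraries (squares WTHK2, triangles LAC). Man1a lies furthest from 0, at 0.46, where LAC was at -0.55 and WTHK2 at -0.08 against EV.

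Outside the 72 genes, 57 listed genes of the same pathways were taken from a list of transporters, dolichol enzymes, ER lectins and further transferases. That list was written with earlier results of the series known, so its shares are descriptions. Of these, 15 rose and 6 fell in WTHK2 (median 0.05), and 12 rose and 10 fell in LAC (median 0.04). The shares called were 36.8% and 38.6%, below the 46.4% and 49.5% of all genes. In WTHK2 26.3% rose and 10.5% fell, where 21.0% and 25.4% of all genes did. In LAC 21.1% rose and 17.5% fell, where 22.4% and 27.1% of all genes did. The LAC counts were 22 and 9 with equal medians, and 7 rose without EV replicate 1. Slc35b1, an ER nucleotide carrier, rose in WTHK2 by 0.39 ± 0.05 (adjusted p = 2.43e-06), from a mean of 107 to 141 CPM. Calr, the ER lectin calreticulin, rose by 0.35 ± 0.04 (adjusted p = 3.13e-07) and Amdhd2, an enzyme that deacetylates GlcNAc phosphate, by 0.37 ± 0.06 (adjusted p = 3.62e-05). Ganab, the catalytic subunit of glucosidase II, fell in WTHK2 by 0.33 ± 0.04 (adjusted p = 4.01e-06), from 398 to 316 CPM. Dhdds, which makes the dolichol chain, also fell in WTHK2, by 0.23 ± 0.06 (adjusted p = 0.00609). All of these were called in the same direction in LAC. There Amdhd2 was at 0.29 (adjusted p = 4.14e-04), Calr at 0.15 (0.0018) and Slc35b1 at 0.13 (0.0277) against EV. Ganab was at -0.18 (0.0016) and Dhdds at -0.21 (0.0108). The LAC calls of Dhdds and Slc35b1 were lost without LAC replicate 1 (0.0677 and 0.132), among other alternatives. That of Calr was lost under quantile normalization. Canx, listed with Calr among the ER lectins, did not share its rise. It differed by -0.06 in WTHK2 with no call (limma adjusted p = 0.317) and fell in LAC by 0.23 (adjusted p = 3.53e-04).

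Edem1 and Edem3, which handle mannose trimming of proteins bound for degradation, fell in both groups. Edem2 was not called, at -0.10 in WTHK2 and 0.06 in LAC (limma adjusted p = 0.144 and 0.403). For Edem3 the values were -0.27 ± 0.05 in WTHK2 (adjusted p = 2.65e-04) and -0.41 ± 0.05 in LAC (adjusted p = 3.73e-06), and for Edem1 -0.23 ± 0.07 (adjusted p = 0.00873) and -0.42 ± 0.07 (adjusted p = 4.09e-05). In LAC, Prkcsh, the other subunit of glucosidase II, rose by 0.21 ± 0.04 (adjusted p = 4.46e-04), and Extl3, a GlcNAc transferase of heparan sulfate synthesis, fell by 0.27 ± 0.05 (adjusted p = 1.90e-04). In WTHK2 Prkcsh differed by 0.05 (adjusted p = 0.377). Extl3 was at -0.12 there (adjusted p = 0.0491), a call lost with equal medians (0.156) and in other alternatives. Of 5 accessory subunits of the oligosaccharyltransferase, 3 rose in each comparison and 0 fell, where 21.0% and 22.4% of all genes rose. The small subunit Ost4 was the clearest of them, at 0.29 ± 0.06 and 0.27 ± 0.06 (adjusted p = 4.15e-04 and 5.77e-04). The catalytic subunits Stt3a and Stt3b fell in both groups, with fragile calls for Stt3a. The other accessory subunits called were Ostc and Krtcap2. Krtcap2 lost its WTHK2 call without EV replicate 1 (0.148), EV replicate 3 (0.0891), WTHK2 replicate 1 (0.0961) or WTHK2 replicate 3 (0.175), and its LAC call without EV replicate 1 (0.134), EV replicate 3 (0.0816), LAC replicate 1 (0.17) or LAC replicate 3 (0.069). Ostc lost its LAC call without EV replicate 2 (0.0822). The calls given here against EV for Amdhd2, Ganab, Edem1, Edem3, Prkcsh and Ost4 were kept in every alternative. So were the WTHK2 calls of Slc35b1, Calr and Dhdds and the LAC call of Extl3.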

How the data were processed

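The submitters' processing notes name STAR 2.7.0a, featureCounts 2.0.1, edgeR 3.8, cutadapt 1.18 and FastQC 0.11.8, with no roles. Genome build, annotation and strand setting: not given in the sources used here. Normalized CPM for 6753 genes in 9 libraries were deposited by the authors; each column sums to between 80.3% and 81.4% of the unit's full total and the lowest gene mean is 20.4 CPM, so fewer-read genes were not analysed here. Values are whole multiples of a step per library (tolerance 0.01), which gives the effective library sizes; the lowest gene had 304 reads on this scale, so for the lowest genes counting error can be as large as the spread between replicates.

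Samples were grouped by their labels. Values were taken as log2(CPM + 1), filtered at a mean of 1 CPM (0 genes removed) and fitted over all 9 libraries (limma 3.58.1 under R 4.3.3, trended variance prior, group as the only term). Tests were two-sided, with Benjamini-Hochberg adjustment over all 6753 genes and calls at 0.05; intervals are 95%. The script was tested on simulated data. Tables and figures used Python 3.11.15, pandas 2.3.3, numpy 2.4.6 and matplotlib 3.10.9. The members, gene lists and rules were chosen with earlier results of these data known. Library values are given for genes called with a log2 change of at least 0.3, for the smallest adjusted p in each role, and for a few more chosen after their values were seen; of the other pathway genes, up to 3 per direction and comparison with the smallest adjusted p, with a few added likewise. Fold changes of CPM + 1 slightly understate those of low genes. The fragility of calls was read from the pseudocount, filter, scaling, variance, block, voom and leave-one-out alternatives. Names were matched to RefSeq for 69 of the 72 genes (91.1% of the table).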

Additional observations from a re-analysis of the deposited data

How the results depend on the processing

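Of the calls, 20 of 33 (WTHK2 with EV), 17 of 35 (LAC with EV) and 2 of 12 (WTHK2 with LAC) were kept in every alternative, and 0 were reversed. Pseudocounts of 0.25 and 4 and no filter left the counts as they were. With a mean of at least 50 CPM required, 42 of the 72 genes remained to be tested, and 9 were higher in WTHK2 and 9 in LAC, in each case against EV. The 30 genes with lower means were not tested in that alternative, so their kept calls refer to the other alternatives. Fitting the 6 libraries of the comparison alone gave 2 genes higher in WTHK2 than in LAC. Leaving out 1 library at a time gave 13 to 17 genes higher and 12 to 17 lower in WTHK2, 6 to 18 higher and 14 to 19 lower in LAC, and 1 to 10 higher and 1 to 7 lower between WTHK2 and LAC; beyond fewer samples, the cause was not tested. Chosen after seeing the data, dropping both WTHK2 replicate 1 and LAC replicate 1 gave 10 genes higher in LAC than in EV, and voom weights on the reads given by the steps gave 17 higher and 17 lower, 16 and 19, and 6 and 6. Among the 57 other pathway genes, 22 were higher in LAC than in EV with equal medians, 4 were higher in WTHK2 than in LAC with the 6 libraries alone, and 4 were higher and 1 lower there without a variance trend. Leaving out 1 library gave 11 to 18 of them higher and 5 to 6 lower in WTHK2, 7 to 15 and 8 to 12 in LAC, and 2 to 7 and 1 to 4 between WTHK2 and LAC. The planned edgeR test was not run, since no gene had few enough reads to settle that the steps are single reads. A search of promoter letters and protein lengths of the members was not run.

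The replicate numbers were not used as pairs: deviations of same-numbered libraries correlated by 0.08, 0.14 and -0.01 (WTHK2 with EV), 0.02, 0.21 and 0.03 (LAC with EV) and 0.44, 0.25 and 0.07 (WTHK2 with LAC), and not every library correlated best with its own number. With the replicate block, 17 genes were higher and 19 lower in WTHK2, 18 and 19 in LAC, and 10 and 7 between WTHK2 and LAC; of the calls reported, the block ended that of B4GALT4 in WTHK2 (adjusted p = 0.053) and no other of the 72 genes.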

Other observations

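The genes that lie beside the 72 were also looked at, after the values above had been seen, by taking for each of the 69 genes placed in the RefSeq order the 14 nearest listed genes, 7 on each side (B3gntl1 had 7 in all). The RefSeq assembly is CriGri-PICRH and may differ from that used for the counts, so it served only for the order. For Pigt, the GPI transamidase subunit that was lower in WTHK2 than in LAC, 10 of its 14 neighbours were also called lower in that comparison and 0 higher, with a neighbour median of -0.20. Over all genes, 7.76% were called lower there. For Oga, the O-GlcNAc eraser, 8 of 14 neighbours were lower in WTHK2 than in EV (median -0.15), and the neighbour median in LAC was 0.08. For Rpn2 the neighbour medians were -0.14 in WTHK2 and 0.04 in LAC, with 7 of 14 neighbours lower in WTHK2, and for Mogs they were 0.18 and 0.18, with 7 and 9 of 14 higher. For Man2a1, 10 of 14 neighbours were lower and 2 higher in LAC (median -0.22). In WTHK2 these were 5 and 3 (median -0.11). For B4galt5, 7 of 14 were lower and 1 higher in WTHK2 (median -0.14), and 5 and 2 in LAC (median -0.07). Over all genes, 25.4% were called lower and 21.0% higher in WTHK2, and 27.1% and 22.4% in LAC. Other genes moved against their surroundings: Pigq fell while its neighbours had medians of 0.16 and 0.17, and Pigx rose while its neighbours had medians of -0.12 and -0.22. Across the 69 genes, which are not independent replicates, the fold change of a gene and its neighbour median had a Pearson r of 0.31 in WTHK2 and 0.16 in LAC against EV, and of 0.43 between WTHK2 and LAC. These are descriptions with no test, and each r shares its libraries between both axes.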
